A study of Mus musculus with 7 samples.

Results

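BRG1 occupancy in naive CD4+ T helper cells was measured against input DNA, using 2 of the 7 sequencing libraries of the series. BRG1 is the ATPase of SWI/SNF (BAF) remodelling complexes, which use ATP to slide or evict nucleosomes and so open regulatory DNA to transcription factors. In T cells these complexes are known for acting at the Cd4 silencer in the thymus and at cytokine genes after activation. A naive T cell has left the thymus but has not met its antigen, and its chromatin is the starting point from which the Th1, Th2 and Th17 programmes are set up.

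The naive library came from CD4+CD62L+ cells of 95% purity, isolated from spleens and lymph nodes of 4 to 6 weeks old Balb/c mice and used without culture or stimulation. Chromatin was fixed with formaldehyde, cut with micrococcal nuclease (MNase) and sonicated, and BRG1-bound fragments were recovered with the J1 antibody. The input was DNA of pooled CD4+ T helper cells without immunoprecipitation, so it was not a matched sample of naive cells. The other BRG1 libraries were used only to read the naive regions in cells derived from naive cells over plate-bound or soluble anti-CD3 and anti-CD28. Resting Th1 cells had been grown with IL-12 at 1 ng/ml and anti-IL-4, and resting Th2 cells with 10 ng/ml of IL-4 and anti-IFN-gamma, both with IL-2. The stimulated Th1, Th2 and Th17 libraries followed 1.5 h with 50 ng/ml of the phorbol ester PMA plus 500 ng/ml of ionomycin, a calcium ionophore. The Th17 culture held IL-6 at 100 ng/ml, IL-1 beta at 10 ng/ml and TGF-beta at 1 ng/ml with antibodies to IL-4 and IFN-gamma, and was expanded in IL-23 at 10 ng/ml. All groups were wild-type Balb/c by their labels, with 1 library each and no stated number of animals. There is thus no replicate error. Every interval is a 95% interval for counting error only, and each ratio compares libraries.

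After repeated reads were reduced to 1 per 5′ end and strand, 1979954 autosomal reads remained in naive and 3383302 in input. Repeats had made up 41.4% of the naive reads and 7.28% of the input reads. The other BRG1 libraries held between 1290616 and 7719555 distinct autosomal reads. Counts are given in windows of 200 bp and as RPM, reads per 1000000 distinct autosomal reads. To be called, a window needed a naive count with a Poisson tail under 1e-05. The expected count was the naive genome mean or, where larger, the input density over 1, 5 or 10.2 kb around the window, scaled to the naive depth. Neighbouring called windows, with at most 1 uncalled window between them, made up a region. The tail is a calling threshold and no measure of replicate error.

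The naive BRG1 library stood above the expected count at 5291 autosomal regions, most of them short and lightly covered. The input of a window entered that expected count only averaged over 1 kb or more. With the input count of the single window as a further density, an alternative added after seeing the data, 2958 regions were called. In 3 of the 5291 the naive RPM was below the input RPM (lowest ratio 0.854). The called windows numbered 5970 of 12361613, or 0.0483%, and 4687 regions (88.6%) consisted of 1 window. The regions held a median of 10 naive reads (range 5 to 424) and 3 input reads. The median naive level was 5.05 RPM, with 3.03 RPM at the 10th percentile and 10.6 RPM at the 90th. Together they took 3.42% of the naive reads (3.39 to 3.44) and 0.766% of the input reads (0.757 to 0.775). Wide stretches were rare at this depth, with 4 regions reaching 1000 bp or more. With the roles of naive and input exchanged, 932 regions were found, or 405 with the input thinned to the naive depth.

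The low end of the list lay near the limit of the depth. Of 5437 windows with 5 naive reads, 397 were called, and of 11124 windows with 4 reads none was. Windows with 5 reads held on average 2.59 input reads, against 0.274 in all windows. The list therefore covers sites well above the genome mean of 0.160 naive reads per window and says nothing of weaker ones.

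Because the reads that call a region cannot also measure it, the excess was measured on reads left aside. With 50% of the naive reads used for calling, 2162 regions were found, and the remaining reads stood 3.84-fold over input in them (3.74 to 3.94). The calling reads themselves gave 5.86-fold in the same regions, so values on the calling reads were higher than on reads left aside. Of these regions, 1979 (91.5%) held at least 1 read of the other 50%. With the input divided in the same way, the excess was 3.46-fold (3.36 to 3.57).

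Naive regions were of unequal strength over their own input. A direct comparison, at least 3-fold with an exact interval above 1, was passed by 3939 regions (74.4%), called the direct regions below. The regions with no input read numbered 1115, and all of them passed. Of the 699 regions with 10 to 19 input reads, 164 passed, and of 124 with 20 to 49 reads, 18 passed. In 11 regions the input held 50 or more reads, and naive stood 1.76-fold over it when they were pooled. Repeats made up 94.2% of their naive reads and 95.3% of their input reads. Before repeats were dropped, they held 30736 of 3378177 naive reads and 37251 of 3649132 input reads. The excess of naive in these 11 regions was thus present in distinct reads only. The largest naive count of all, 424 distinct reads on chromosome 2 from 98506401 to 98507400, belonged to this group. The input held 446 distinct reads there (ratio 1.62, 1.42 to 1.86), and the naive file held 12639 reads before repeats were dropped. The region with the highest naive count was thus among those closest to their input.

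The 10 strongest regions, ranked by the lower bound of the naive to input ratio, each held 21 to 50 naive reads against 0 or 2 input reads. Their positions are given on mm9, without gene names, because no annotation of that build was used here. The first, on chromosome 8 from 86628601 to 86629000, held 41 naive reads and no input read, at least 18.2-fold higher by the exact lower bound (23.4-fold against a floor of 3 input reads). Both strands contributed, with 14 plus and 27 minus reads. In this region the resting Th1 library held 54 reads, resting Th2 44, stimulated Th1 89, stimulated Th2 98 and stimulated Th17 67. In RPM these were 31.1, 34.1, 23.3, 23.7 and 8.68 against 20.7 in naive, so the site was occupied in every BRG1 library and was lowest in stimulated Th17. That was not particular to this site: stimulated Th17 also had the lowest median of the BRG1 libraries over all 5291 regions, 2.59 RPM.

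The second, on chromosome 12 from 70712201 to 70713000, spanned 800 bp and held 33 naive reads and no input read, at least 14.4-fold higher by the exact lower bound. Here the resting Th1, resting Th2, stimulated Th1 and stimulated Th2 libraries held 18, 13, 51 and 51 reads, and stimulated Th17 held 2. The third, on chromosome 3 from 87942201 to 87943000, held 50 naive reads and 2 input reads, a ratio of 42.7 (11.2 to 362). It was the highest of the 10 in naive, at 25.3 RPM, and resting Th1, resting Th2 and stimulated Th1 stood there at 22.5, 18.6 and 19.7 RPM. The tenth, on chromosome 7 from 26053201 to 26053400, packed 39 naive reads into 1 window against 2 input reads, a ratio of 33.3 (8.63 to 285).

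Of the others, the region on chromosome 2 from 172911401 to 172911600 held 24 naive reads, that on chromosome 3 from 107136001 to 107136200 held 21, and that on chromosome 19 from 53497801 to 53498000 held 21. None had an input read, and all were also above 3 RPM in each of the other 5 BRG1 libraries. A different pattern was seen on chromosome 5 from 15337401 to 15337800, with 26 naive reads, and on chromosome 12 from 49931801 to 49932000, with 21. Both were empty in input and in stimulated Th17, while the other 4 BRG1 libraries held 14 to 21 reads in the first and 7 to 20 in the second. How readily reads of the input and stimulated Th17 libraries align at these sites was not tested, so the ranks of both regions over input are uncertain. The same holds for the region ranked second, on chromosome 12 from 70712201. It was empty in input and stood at 0.259 RPM in stimulated Th17, against 10.1 to 13.4 RPM in resting and stimulated Th1 and Th2. The region on chromosome 6 from 99339201 to 99339600, with 23 naive reads, was the only one of the 10 in which every other BRG1 library was at or below 3.10 RPM, against 11.6 in naive. No sequence is shown for these sites, since no genome of their build was used here.

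**Figure D1:**
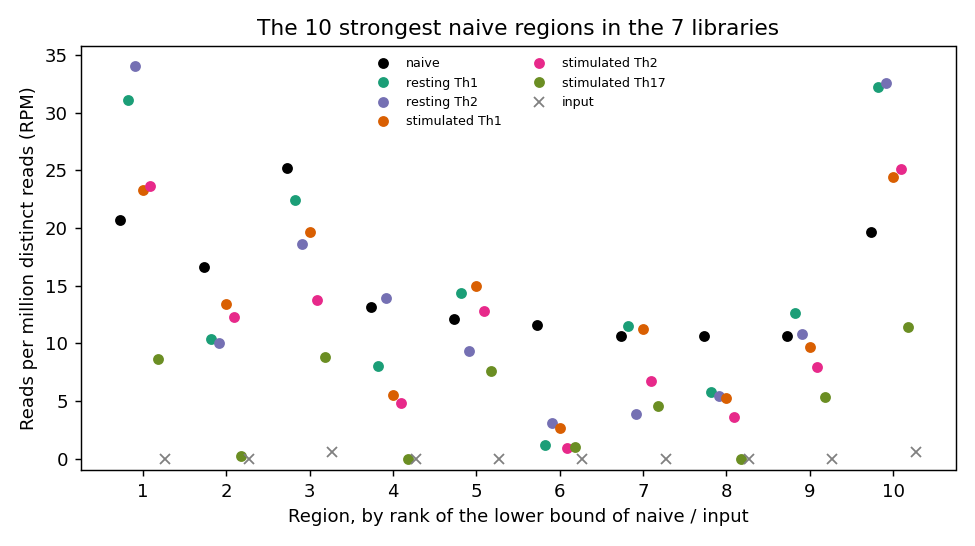
RPM (vertical axis) in the 10 strongest naive regions (horizontal axis, by rank of the lower bound of the naive to input ratio). Each symbol is 1 library and there are no error bars, as each group has 1 library. The input crosses lie at or near 0, naive ranges from 10.6 to 25.3 RPM, and stimulated Th17 is at 0 in the regions ranked 4 and 8.

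Of the 5 widest regions, 4 reached 1000 bp, and the repeat-rich region of chromosome 2 given above was one of them. The fifth was 1 of 19 regions of 800 bp, taken for its naive count. On chromosome 3 from 94819201 to 94820400, 1200 bp held 105 naive reads, 52 plus and 53 minus, and 13 input reads, a ratio of 13.8 (7.73 to 26.8). Naive stood there at 53.0 RPM, resting Th1 at 61.0 and resting Th2 at 62.0, and the stimulated Th1, Th2 and Th17 libraries at 59.8, 45.4 and 28.5. On chromosome 15 from 76181001 to 76182200 naive held 68 reads and input 10, a ratio of 11.6 (5.95 to 25.3). Naive stood at 1.03 times the mean of the other 5 BRG1 libraries in the first region and at 0.869 times in the second.

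The remaining wide regions lay on chromosome 8 from 116158801 to 116159800, with 71 naive and 11 input reads, and on chromosome 11 from 96838601 to 96839400, with 103 naive and 17 input reads. In the latter, the region of 800 bp, naive stood at 52.0 RPM against a mean of 69.2 RPM over the other 5 BRG1 libraries. The plus and minus strands were near balance in each of the 5 wide regions. Over all 5291 regions, 97.9% (97.5 to 98.3) held reads of both strands. Such a share depends on the number of reads in a region and is given as a description.

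BRG1 reads formed a narrow summit on a broad shoulder. The 1819 direct regions found with 50% of the naive reads and 50% of the input reads were read with the remaining reads. In their central window naive stood 4.29-fold over input (4.12 to 4.46). The ratio was 3.17 at 0.1 to 0.5 kb, 2.23 at 0.5 to 1.1 kb and 1.79 at 1.1 to 2.1 kb. It was 1.37 (1.34 to 1.41) at 2.1 to 5.1 kb and still 1.15 (1.14 to 1.16) at 25.1 to 50.1 kb. In 10 kb bins without any called window, over the whole genome, the ratio was 0.947. Pooled over these regions, naive RPM thus stood slightly above input RPM at 25.1 to 50.1 kb. Other naive regions can lie at such distances, as the median distance from a naive region to the nearest other one was 47.0 kb. Their part in the ratio of 1.15 was not tested, whereas the bins with a ratio of 0.947 held no called window. The values therefore do not show a continuous stretch of raised signal around single regions.

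The same positions were at least as high in the resting libraries, which had no part in choosing them. The central ratio to input was 5.67 for resting Th1 and 5.52 for resting Th2, and 5.24, 4.66 and 2.73 for the stimulated Th1, Th2 and Th17 libraries. These ratios share the input library with the naive ratio. At 2.1 to 5.1 kb the ratio was 2.03 in both stimulated Th1 and stimulated Th17, against 1.61 in resting Th1. Resting and stimulated Th2 were closer there, at 1.76 and 1.84, and over all 2377 regions, direct or not, they stood at 1.73 and 1.72. The stimulated libraries were also higher further from the centres of the direct regions, so this difference was not confined to their close surroundings. Other naive regions can lie at those distances too. At 25.1 to 50.1 kb stimulated Th1 and Th17 stood at 1.63 and 1.67, against 1.29 in resting Th1. Stimulated Th2 stood there at 1.54, against 1.38 in resting Th2. Stimulated Th17 was flat over the centre, at 2.73 in the central window (2.63 to 2.82) and 2.79 at 0.5 to 1.1 kb (2.70 to 2.88). In bulk chromatin, fewer cells with BRG1 at a site and less BRG1 per cell cannot be told apart. With 1 library a group, neither can be told apart from a difference between the libraries themselves.

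**Figure D2:**
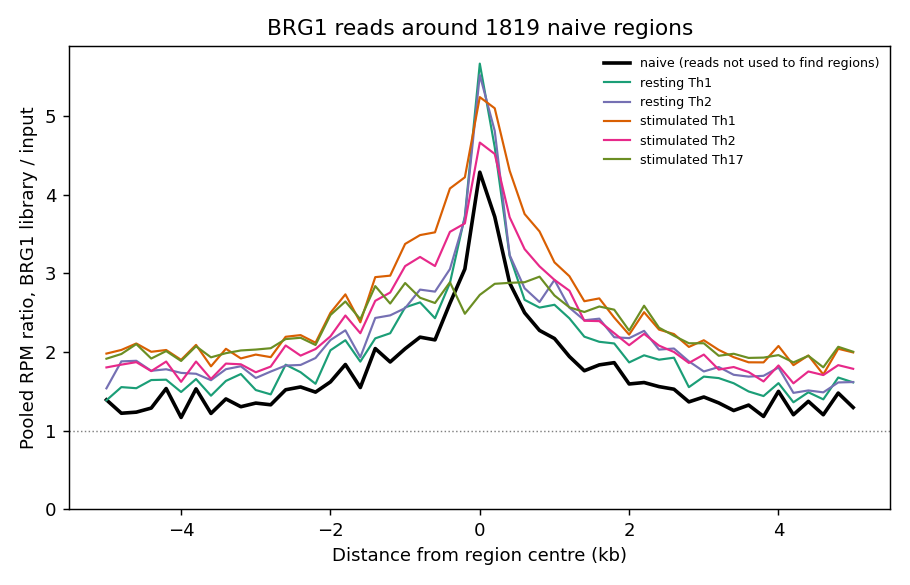
Pooled ratio of RPM in each BRG1 library to input (vertical axis) by distance from the centre of 1819 naive regions (horizontal axis, kb, 200 bp windows). Each line is 1 library, the dotted line marks a ratio of 1, and regions of even width are centred on the window left of their middle. Naive, on reads not used to find the regions, peaks at 4.29, below the resting libraries and above stimulated Th17 at 2.73.

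The spacing of strands, a measure of fragment length, differed between naive regions and the rest of the genome. MNase cuts linker DNA between nucleosomes, and a nucleosome protects somewhat under 150 bp, but the chromatin was also sonicated and fragments of 250 to 300 bases, as the labels give them, were selected. The distance from plus-strand to minus-strand 5′ ends therefore reflects fragment length, and the parts of protection, shearing and selection in it cannot be told apart. Over 1 kb from any naive region, naive distances peaked at 130 to 139 bp. In the direct regions the peak lay at 110 to 119 bp and was broader. Of pairs 60 to 179 bp apart, 52.0% (51.7 to 52.2) were shorter than 120 bp in the direct regions, against 43.7% (43.5 to 43.9) elsewhere. These intervals take pairs as independent, but 1 read can enter several pairs, so they are too narrow. In the direct regions 63987 shorter and 59182 longer pairs came from 24539 plus-strand reads. Regions were chosen after a shift of 75 bp, and the part of that choice in the distances was not tested.

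This shift towards shorter distances was not shared by the resting libraries. In resting Th1 the share under 120 bp was 58.6% in the naive direct regions and 62.6% elsewhere, and in resting Th2 it was 63.2% and 67.1%. Stimulated Th1 had 50.2% in both places, and stimulated Th2 had 54.4% and 55.9%. Stimulated Th17 moved the same way as naive, from 47.5% elsewhere to 50.4%. In the input the peak lay at 90 to 99 bp in both places, with 60.2% and 61.7% under 120 bp. The naive fragments were thus the longest of all libraries outside regions, and the input fragments were shorter. The part that this difference in length plays in the ratios to input was not tested.

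**Figure D3:**
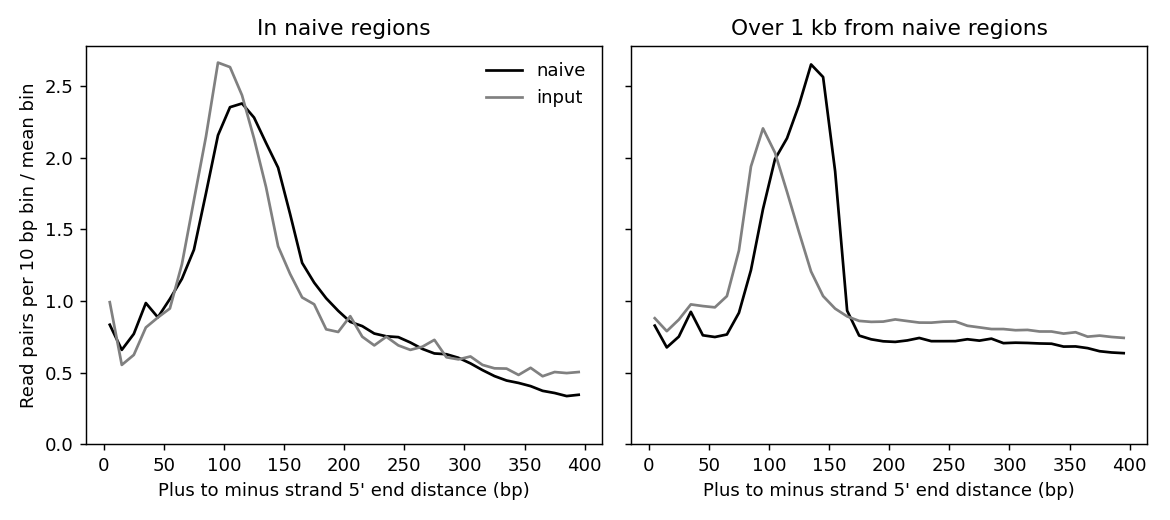
Read pairs per 10 bp bin relative to the mean bin (vertical axis) by the distance from a plus-strand to a minus-strand 5′ end (horizontal axis, bp), in direct naive regions (left) and over 1 kb from any naive region (right). The black line is the naive library and the grey line the input. Outside regions the naive peak lies at 130 to 139 bp and falls away steeply, and in regions it lies at 110 to 119 bp, while the input peaks at 90 to 99 bp in both panels.

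Naive regions were spread over all autosomes but were densest on chromosome 11, which is known as one of the most gene-rich mouse chromosomes. To allow for mappable length, regions were counted per 100000 input reads. Chromosome 11 held 501 regions, 246 per 100000 (225 to 269), against 156 over all autosomes. Chromosomes 17, 7 and 19 followed with 190 (167 to 214), 187 (168 to 208) and 186 (159 to 216), and these 3 do not differ beyond their intervals. The lowest were chromosome 14 with 108 (92.4 to 126), chromosome 16 with 112 (95.3 to 132) and chromosome 18 with 114 (95.5 to 135), which overlap in the same way.

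Relative to all autosomes, chromosome 11 stood at 1.57 and chromosome 14 at 0.693. With the 3939 direct regions alone these values were 1.60 and 0.718, so the difference was as large without the regions close to their input. The total of naive reads per chromosome did not follow it: outside regions the naive to input ratio on chromosome 11 was 0.993, and on chromosome 14 it was 0.994.

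**Figure D4:**
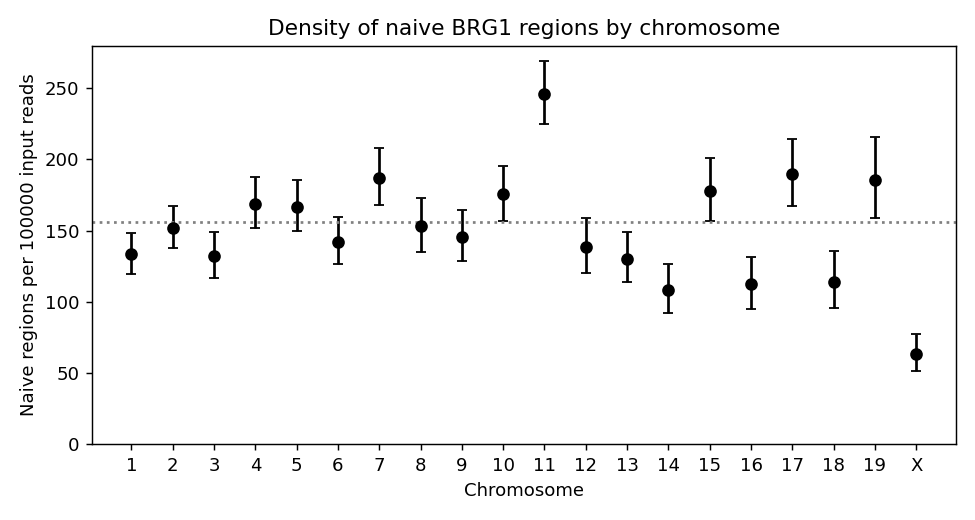
Naive regions per 100000 distinct input reads (vertical axis) for each autosome and chromosome X (horizontal axis). Points are counts of 1 library, bars are exact 95% Poisson intervals, and the dotted line is the value over all autosomes, 156. Chromosome 11 lies at 246, above the upper bound of each other chromosome, and chromosome X at 63.3, below the lower bound of each other chromosome.

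Some regions lay in groups. With gaps of up to 50 kb, 385 groups of 3 or more regions held 1524 regions (28.8%), with a median span of 50.8 kb and at most 10 regions. One of the largest, on chromosome 11 from 52082001 to 52196600, held 10 regions in 114.6 kb with 104 naive reads against 14 input reads. Its regions held 5 to 34 naive reads each. It had the fewest input reads of the 5 largest groups given here.

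On chromosome 10 from 80041201 to 80205200, 10 regions spread over 164 kb and held 106 naive and 33 input reads. On chromosome 11 from 96777801 to 96912200, 9 regions held 211 naive and 38 input reads, and they took in the wide region of 103 reads given above. On chromosome 7 from 29123801 to 29221800, 9 regions held 170 naive and 71 input reads. These groups of 9 were taken by naive count from 4 of that size. A further group, 10 regions at the start of chromosome 9 from 3000001 to 3038200, held 453 naive and 451 input reads, so it was rich in input to begin with. Close neighbours and isolated regions were alike in this respect: the 746 regions with another within 5 kb and the 2551 with none within 50 kb both held a median of 10 naive reads.

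To ask where naive regions stood in the differentiated cells without the shared input, each of the other BRG1 libraries was thinned to 1290616 reads and set against its own genome mean. A region passed where its whole count stood above that mean times its number of windows, at the same tail of 1e-05. The shares of all windows set beside it are for single windows, which 88.6% of the regions were. Resting Th1 passed in 68.7% of the naive regions (67.5 to 70.0), where 0.19% of all windows did. Resting Th2 passed in 65.6% (64.3 to 66.9) against 0.229% of windows, and stimulated Th1 in 66.9% (65.7 to 68.2) against 0.325%. For stimulated Th2 the share was 60.9% (59.6 to 62.2) against 0.305%, and for stimulated Th17 44.5% (43.2 to 45.9) against 0.212%. Most naive regions thus passed this threshold after differentiation at rest, and a smaller share passed it in stimulated Th17 cells. Failing it does not mean an absence of reads. At full depth 5.97% of the regions held no read in resting Th1, 9.26% in resting Th2 and 3.99% in the deeper stimulated Th17 library. Windows rich in input reads also pass such a mean: of the 834 regions with 10 or more input reads, 97.1% passed in resting Th1, and of the 4457 with fewer, 63.4% did.

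Against the input, at 3-fold with an interval above 1, 2718 naive regions (51.4%) passed in resting Th1, where 0.149% of all windows did. In resting Th2 2461 (46.5%) passed against 0.229% of windows, and in stimulated Th1 3011 (56.9%) against 0.376%. In stimulated Th2 2569 (48.6%) passed against 0.327%, and in stimulated Th17 1837 (34.7%) against 0.29%. These libraries share the input with naive and differ in depth. The pooled ratio to input in the 5291 regions was 4.43 for resting Th1 and 4.40 for resting Th2, and 4.21, 3.75 and 2.23 for the stimulated Th1, Th2 and Th17 libraries. The naive ratio, 4.46, is on the reads that chose the regions.

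How often a naive region stood above the mean in the other libraries rose with its number of naive reads. Of the 365 regions with 5 naive reads, 14.2% passed in resting Th1 (10.8 to 18.3). The share in that library was 54.8% of the 1360 regions with 7 to 9 reads, 87.5% of the 2322 with 10 to 19 and 99.4% of the 629 with 20 or more. In stimulated Th17 the same 4 shares were 5.48%, 31.8%, 54.7% and 83.9%. Input was not held equal across these classes. Regions with 10 or more input reads had a median of 8.59 naive RPM, against 4.55 in those with fewer. Reads of both strands were present in 86.3% of the regions with 5 reads and in 99.9% of those with 10 to 19.

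Counted over the 5 libraries, 1641 naive regions (31.0%) passed in all 5 and 782 (14.8%) in none. Regions passing in none held a median of 6 naive reads and those passing in all 5 a median of 15. Their median input was 0 and 2.07 RPM. Pooled, the regions passing in none still stood 4.88-fold over input in resting Th1 and 4.18-fold in resting Th2. In stimulated Th1, Th2 and Th17 they stood at 5.52, 4.33 and 4.25-fold. Passing in none was thus no absence of BRG1 reads, though all these ratios share the low input.

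**Figure D5:**
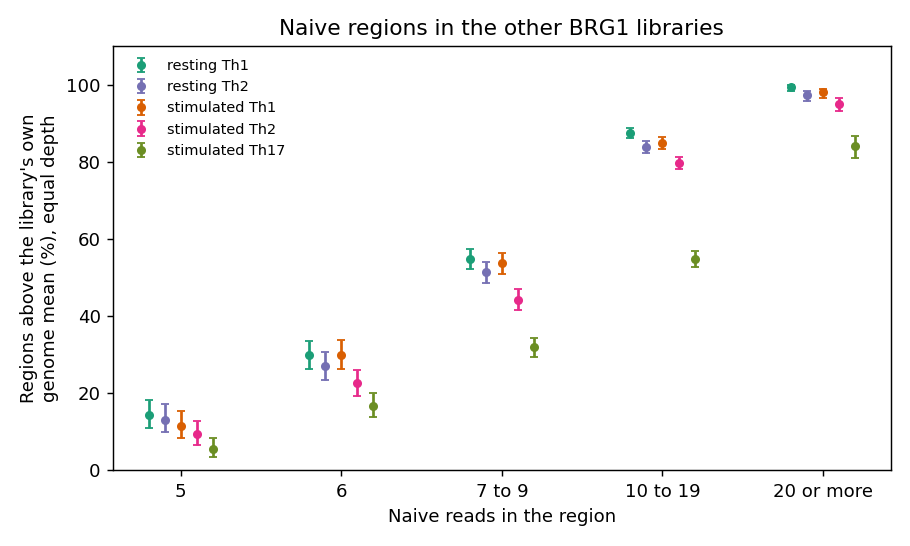
Percent of naive regions passing against each library's own genome mean at equal depth (vertical axis) by naive reads in the region (horizontal axis). Passing means a Poisson tail under 1e-05, which in a region of 1 window takes at least 4 reads. Points are single libraries and bars are exact binomial 95% intervals that take regions as independent trials. In each library the share is lowest at 5 reads and highest at 20 or more, and stimulated Th17 is the lowest library in every class.

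Among the 2951 regions with 10 or more naive reads, the ones most in favour of naive were small. On chromosome 11 from 75546001 to 75546200 naive held 10 reads and the input none, with none in resting Th1 or resting Th2 and 3, 3 and 10 in stimulated Th1, Th2 and Th17. Naive stood at 5.05 RPM there, 8.996 times the mean of the other 5 BRG1 libraries, 0.561 RPM. On chromosome 12 from 109170201 to 109170400 naive held 10 reads and the input 1, and the other libraries stood at 0 to 1.05 RPM. Regions on chromosome 16 from 23987601 and on chromosome 6 from 86799201 had 10 and 12 naive reads, with 1 read in each resting library and none in input.

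The fifth was the region on chromosome 6 from 99339201 given among the strongest, the best covered of these regions. It held 23 naive reads, 12 plus and 11 minus, against 2 and 4 for resting Th1 and Th2, 10, 4 and 8 for the stimulated Th1, Th2 and Th17 libraries, and 0 in input. That was 6.54 times the mean of the other 5 BRG1 libraries. These regions were chosen for this ratio, so their values are a description.

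At the other end stood regions chosen for a low ratio of naive to the mean of the other 5 BRG1 libraries, so their values too are a description. On chromosome 19 from 59314001 to 59314200 naive stood at 5.05 RPM, 0.309 times the mean of the other libraries, which ranged from 8.68 in stimulated Th17 to 20.9 in resting Th2. On chromosome 7 from 148380801 to 148381000 naive held 12 reads and the input 1, and naive stood at 6.06 RPM. The highest library there was resting Th2 at 34.1 RPM and the lowest stimulated Th17 at 5.44 RPM, below naive. On chromosome 9 from 45820601 to 45820800 naive stood at 6.57 RPM against 13.8 and 27.9 for resting Th1 and Th2 and 21.0 and 23.4 for their stimulated counterparts. The other regions, on chromosome 3 from 90390801 and chromosome 6 from 83028201, had 11 and 10 naive reads and 8 and 9 input reads. Neither of those differed from input beyond counting error in naive, with ratios of 2.35 (0.861 to 6.73) and 1.90 (0.693 to 5.28), and the same held on chromosome 19 (1.90, 0.693 to 5.28).

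Windows in which naive lay at least 3-fold below input, with an interval below 1, were few. Of 11988 windows with at least 10 reads in the pair, 3128 (26.1%) were at least 3-fold higher in naive with an interval above 1, and 152 (1.27%) at least 3-fold lower. The window furthest below input, on chromosome 10 from 75383801 to 75384000, held no naive read and 19 input reads, with an upper bound of 0.366 on the ratio. On chromosome 17 from 35966801 to 35967000 naive held 1 read and input 21. On chromosome 9 from 88418001, chromosome 2 from 25174601 and chromosome 8 from 3587601, naive held none and the input 15, 14 and 14. Pooled over the 152 windows, naive stood at 0.140 of input, resting Th1 at 0.624 and resting Th2 at 0.813, while stimulated Th1 stood at 1.17, stimulated Th2 at 1.18 and stimulated Th17 at 0.621. These windows were chosen for a low naive count against a high input count. The naive value of 0.140 follows from that choice and cannot be weighed against the other libraries, and all the ratios share the high input. In the 3128 higher windows, chosen with the input low, resting Th1 and Th2 stood at 6.49 and 6.47 times the input, and the stimulated Th1, Th2 and Th17 libraries at 6.31, 5.59 and 3.22 times.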

How the data were processed

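Each library was deposited by the authors as a list of aligned reads of 34 bases, 1 line per read, with chromosome, start, end and strand. The files hold no deposited count, score or signal, so every count here was made from those lines. Positions are on mm9, a build named in the submitters' processing notes. Which aligner and which read filters were used is not given in the sources used here. Gene and promoter tables at hand were on GRCm38, so none of their coordinates or sequences were used, and no gene is named.

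Python 3.11.15 with numpy 2.4.6, scipy 1.17.1 and pandas 2.3.3 was used. Reads were reduced to 1 per chromosome, 5′ end and strand, shifted by 75 bp and counted in windows of 200 bp on autosomes. Ratios carry conditional exact intervals, percentages Clopper-Pearson intervals. The caller was run on counts simulated from the input density averaged over 10.2 kb. That averaging levels out narrow input-rich windows, so the run says nothing of calls at those. Regions were named by fixed rules: the 10 strongest over input, the 5 widest, the 5 largest groups, the 5 windows furthest below input, and the 5 highest and 5 lowest against the mean of the other BRG1 libraries among regions of at least 10 naive reads, leaving out chromosome 18, with ties in width or group size broken by naive reads. The regions, rules and comparisons were chosen with earlier results of these data known. The direct regions, the split of the input, the comparison at equal depth with each library's own mean and the classes of naive and input reads were added after these data were seen.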

Additional observations from a re-analysis of the deposited data

Results flagged for a closer look

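Chromosome X, which was outside the autosomal comparison, also held BRG1 signal. With X included, 94 regions were called on it in naive, and 12 with the input in the place of naive. The naive reads in them stood 4.98-fold over input (4.41 to 5.64), on the same reads that called them. Their density was 63.3 per 100000 input reads (51.1 to 77.4), below that of every autosome.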

How the results depend on the processing

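The number of naive regions was 7994 at a tail of 1e-04, 2651 at 1e-07, 32748 with all deposited reads kept and 12366 against the genome mean alone; it stayed within 1.5 times the 5291 for the other planned settings. With the input of the window itself also among the densities, an alternative added later, it was 2958. Windows higher in naive numbered 689 and lower ones 30 with a minimum of 20 reads, and 10108 and 834 with all deposited reads. The share of naive reads in regions was 4.73% with all deposited reads, 2.98% without the shift and 2.42% in regions with under 10 input reads. The excess on reads left aside was 4.00 with the 2 parts exchanged and 3.46 with the input divided too. Groups numbered 192 with gaps of up to 20 kb. Against input, the shares of naive regions in resting Th1, stimulated Th1, stimulated Th2 and stimulated Th17 were 48.7%, 48.4%, 39.9% and 23.2% after thinning to the resting Th2 depth. At 2-fold, with resting Th2 second, they were 54.8%, 48.9%, 62.5%, 54.5% and 38.4%, and against each library's own mean 68.7%, 65.6%, 66.9%, 60.9% and 44.5%. Stimulated Th17 was the lowest in each of these settings, and the highest of the 5 changed from stimulated Th1 to resting Th1 after thinning and against the own mean. The cause of these shifts was not tested, except that a stricter tail or minimum leaves fewer windows by construction. No paired analysis was possible because each group has 1 library.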

Other observations

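Regions without input reads were also the ones most often empty in stimulated Th17, the deepest library. Of the 166 naive regions with 10 or more naive reads and no input read, 20 (12.05%, 7.52 to 18.0) held no stimulated Th17 read, against 3 of the 2785 regions with input reads (0.108%). None of the 166 was empty in stimulated Th1 or stimulated Th2, 3 were in resting Th1 and 6 in resting Th2. The 20 regions lay on 11 autosomes, and in them naive ranged from 5.05 to 13.1 RPM and stimulated Th1 from 0.262 to 7.87 RPM. In the 5 kb on each side of these 20 regions stimulated Th17 held 497 reads and the input 293, or 3.22 and 4.33 RPM per region. Beside the other 146 regions without input reads the flanks held 24.9 and 8.34 RPM, and for naive 17.5 against 4.90 RPM beside the 20. How readily reads of each library align in the 20 regions was not tested. The regions were singled out after their values were seen.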
